A study of Mus musculus with 4 samples.

Results

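The machinery that ends transcription by RNA polymerase II (Pol II) and processes the 3′ end of its transcripts was followed here through 47 genes chosen by function. They encode the cleavage and polyadenylation factors, Integrator, phosphatases of the Pol II C-terminal domain (CTD), factors of pausing and elongation, and 3 Pol II subunits. All 47 were found among the 53845 genes of the count table (Sympk, the gene of symplekin, included), and all 47 were among the 17504 genes with enough counts to be tested. The rule that lists them uses no measured value, but the genes were chosen with earlier results of these data known.

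RNA-seq libraries were made from small intestinal crypts of C57BL/6 mice, with 2 libraries from wild-type (WT) mice and 2 from Vil-CREPTKO mice. In Vil-CREPTKO mice, Cre recombinase under the villin promoter removes a loxP-flanked exon of Rprd1b, the gene of CREPT, from the intestinal epithelium beginning in gut development. Non-epithelial cells in a crypt preparation therefore keep the gene. The labels give the strain, the tissue and the genotype but no age, and the study's methods describe the libraries as biological replicates. Its reporting summary gives an age range and both sexes for the mice of the whole study, without assigning them to libraries.

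Most protein-coding transcripts are cut downstream of a polyadenylation signal that CPSF recognises, with CstF bound to the sequence beyond it, and the new end is then extended by poly(A) polymerase. Pol II is released after the cut while the exonuclease XRN2 degrades the remaining nascent RNA. Close to the promoter, DSIF and NELF hold Pol II in a paused state, P-TEFb phosphorylates both factors and the CTD to release it, and Integrator can end transcription there instead. CREPT, the gene product deleted in these mice, binds the phosphorylated CTD.

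Rprd1b itself was lower in both Vil-CREPTKO libraries. It had 3087 and 3030 counts in WT libraries against 1142 and 1424 in Vil-CREPTKO libraries, or 60.5, 61.6, 26.3 and 29.0 CPM (counts scaled to a common library size by the trimmed mean of M values). The Vil-CREPTKO mean was 45.3% of the WT mean (log2 fold change −1.14, SE 0.12, adjusted p = 0.0041, edgeR quasi-likelihood test). The table gives a sum over all exons of a gene, so transcripts that lack the deleted exon were counted too. Of the exon length of Rprd1b, 5.69% overlaps Tgm2 on the opposite strand, and the strand setting of the counting is not known. Tgm2 had 18760 counts in all libraries together, against 8683 for Rprd1b. In a bulk sample, fewer cells with a transcript and less transcript per cell cannot be told apart, here and in all results that follow.

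The libraries held 47241049 to 49369315 counts. Epithelial markers were abundant in each of them (Epcam 1270 to 1411 CPM), and smooth muscle markers summed to 0.570 to 0.752 CPM. The summed level of 5 villus enterocyte markers was 6762 and 8965 CPM in WT against 13285 and 7910 in Vil-CREPTKO libraries, so Vil-CREPTKO replicate 1 stood above the rest. That library was the highest in Alpi, Apoa1, Fabp1 and Ada. Apoa4 differed, at 732 and 1181 CPM in WT against 815 and 437 in Vil-CREPTKO libraries. Stem and cycling cell markers summed to 1419 to 2058 CPM, Paneth cell markers to 2649 to 4205, immune markers to 152 to 257, stromal markers to 9.67 to 26.7, red blood cell markers to 11.3 to 61.9, and pancreas markers to 18.6 and 13.98 CPM in WT and 39.5 and 24.4 in Vil-CREPTKO libraries. Of the 36 markers tested, 0 passed in edgeR (8 had an unadjusted p under 0.05), and with DESeq2 5 passed, all higher in Vil-CREPTKO (Fabp1, Ada, Cela1, Prss2 and Pnlip). The same library had the highest share of mitochondrial counts, 10.2% against 6.75% to 7.62%. WT replicate 2 had 863 CPM of Xist and no Y-linked counts, whereas Xist elsewhere lay between 0.299 and 0.529 CPM and Y-linked genes summed to between 148 and 164 CPM. By these genes WT replicate 2 alone had a female pattern, and both Vil-CREPTKO libraries had a male one. The part of these differences in the results was not tested.

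Across the 47 genes, 1 passed an adjusted p of 0.05 in the edgeR quasi-likelihood test, and it was lower in Vil-CREPTKO crypts: Nelfe, a subunit of the negative elongation factor NELF. Of all genes tested, 2.71% passed, 0.423% higher and 2.29% lower. Nelfe also passed the study's added limit of a log2 fold change beyond 1 in size, which 1.64% of all genes did. At an unadjusted p under 0.05 stood 2 of the 47 genes, Nelfe and Cdk9, beside 14.3% of all genes. None of the 46 genes other than Nelfe passed with edgeR or with DESeq2, and the number with an unadjusted p under 0.05 was 1 with edgeR and 0 with DESeq2.

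The log2 fold changes of the other 46 genes lay between −0.27 and 0.29, with standard errors from 0.11 to 0.18. Their 95% intervals, which are approximate, all excluded both a 2-fold fall and a 2-fold rise. In 43 of the 46 genes they also excluded a 1.5-fold change in either direction. The lowest count of any of the 46 genes in a library was 608.

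**Figure D1:**
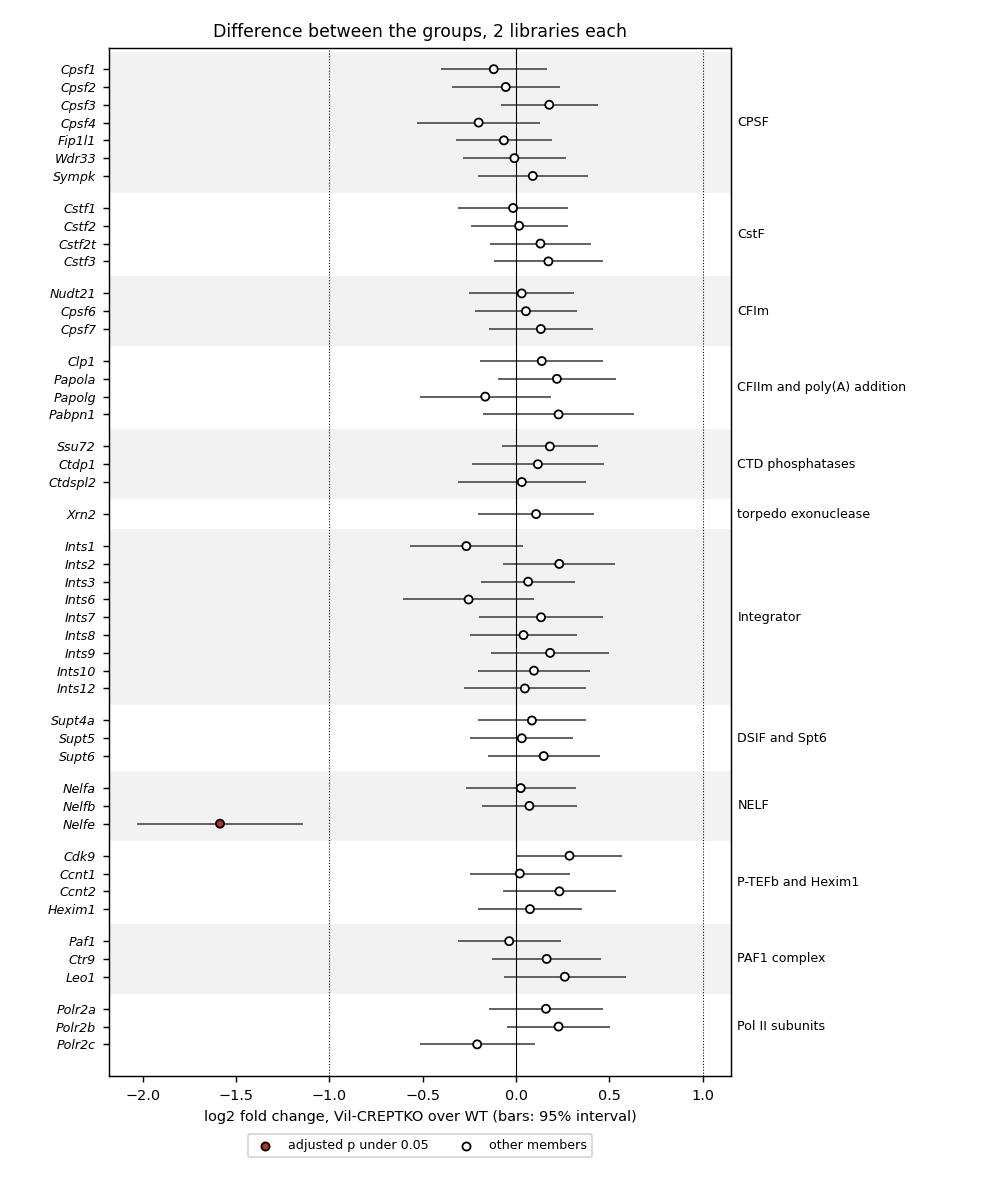
Log2 fold change of each of the 47 genes (x axis, Vil-CREPTKO over WT, 2 libraries per group) by role (y axis, complexes named at the right); points are edgeR estimates, bars 95% intervals, and dotted lines mark −1 and 1. Nelfe lies alone at −1.59, and the other 46 lie between −0.27 and 0.29.

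By direction, 35 of the 47 estimates (74.5%) were above 0 and 12 below, beside 49.1% above 0 among all genes tested. The median was 0.074, beside −0.0060 for all genes tested. Among genes tested within the same range of mean CPM, 54.6% were above 0 and the median was 0.024. The split of the 47 depended on the scaling: with library sizes alone, 22 were higher and 25 lower, the median was −0.022, and that of all genes was −0.098. With a correction for GC content and length, 39 were higher and 8 lower, with a median of 0.131 (0.024 for all genes). Set against the WT mean, Vil-CREPTKO replicate 1 had a median of 0.018 and Vil-CREPTKO replicate 2 a median of 0.105. Groups did not overlap in 24 of the 47 genes, or 51.1%, beside 45.1% of all genes. Without overlap and higher in Vil-CREPTKO were 18 of the 47 (38.3%), beside 21.0% of all genes. Without overlap and lower were 6 of the 47 (12.8%), beside 24.2% of all genes.

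**Figure D2:**
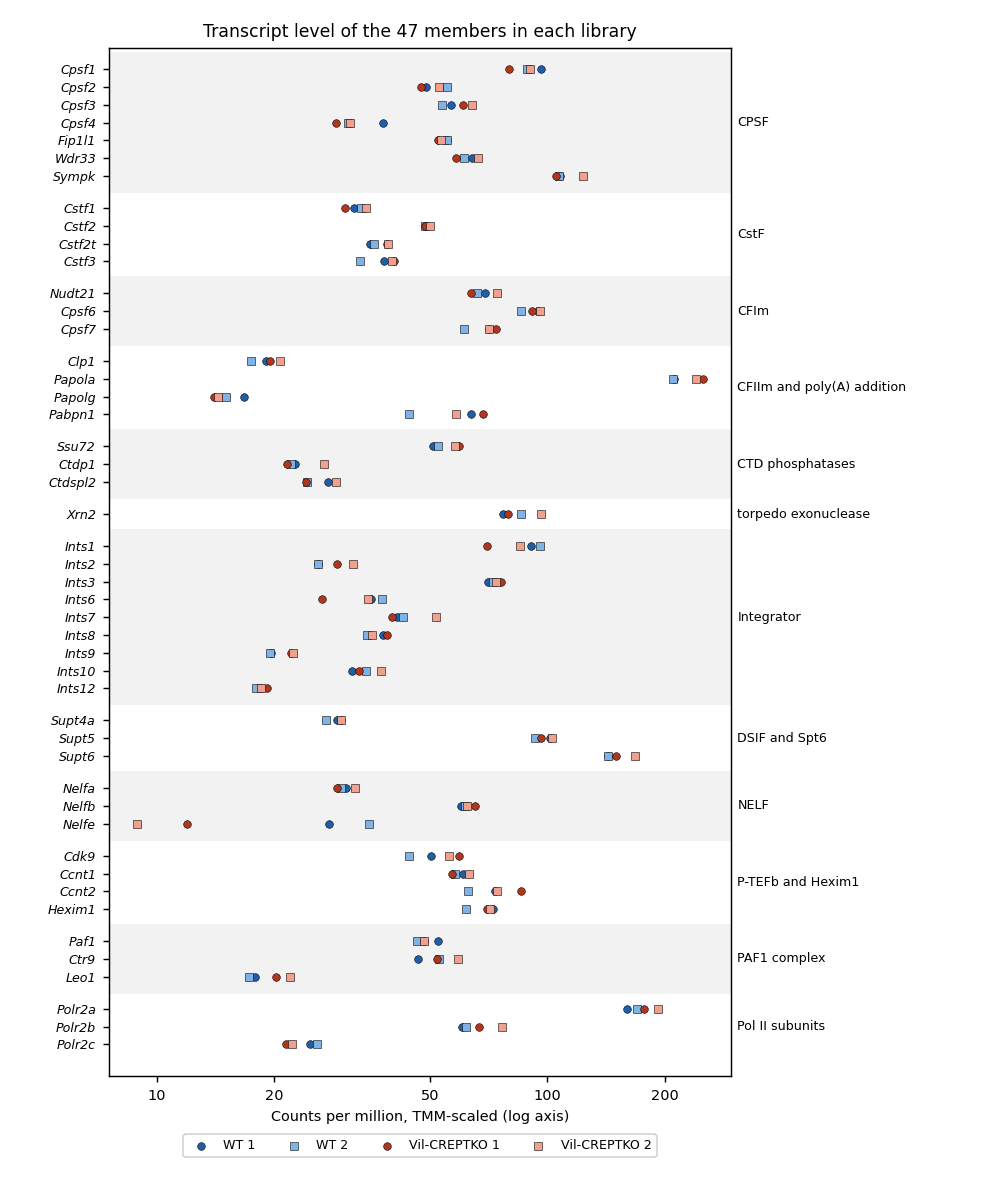
Level of each of the 47 genes in each library (x axis, CPM on a log scale, not divided by length) by role (y axis); blue symbols are WT, red symbols Vil-CREPTKO, circles replicate 1 and squares replicate 2. The symbols of most genes lie close together, and only those of Nelfe are well apart, at 27.6 and 35.0 CPM in WT against 12.0 and 8.90 in Vil-CREPTKO.

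Per kb of exon, levels over the 4 libraries spanned 17.3-fold. Papola (34.5 CPM per kb), Supt4a (30.6) and Polr2a (24.7) were the highest, and Ints6 (2.00), Ints12 (2.33) and Ints2 (2.65) the lowest. Dividing by the longest transcript in place of all exons, an alternative added after the data were seen, put Ssu72 in second place and Polr2a in sixth. Ints6 and Ints12 remained the lowest, while Ints2 then stood above Papolg and Leo1.

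NELF holds Pol II in the paused state near the promoter, and NELF-E, the product of Nelfe, is its subunit with an RNA recognition motif. Nelfe had 1408 and 1723 counts in WT libraries against 520 and 437 in Vil-CREPTKO libraries. In CPM the level was 27.6 and 35.0 in WT (31.3 ± 5.25, SD, n = 2) against 12.0 and 8.90 in Vil-CREPTKO (10.4 ± 2.17, SD, n = 2). Both Vil-CREPTKO libraries lay well below both WT libraries, and the gap between the groups was wider than the spread within either.

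The Vil-CREPTKO mean of Nelfe was 33.3% of the WT mean. The edgeR quasi-likelihood test gave a log2 fold change of −1.59 (SE 0.20, 95% interval −2.03 to −1.14, adjusted p = 0.0061). Nelfe ranked 73rd among the 17504 genes by p. Its estimate lay between −1.82 and −1.38 under all 14 alternatives and passed under each, also without WT replicate 2, the library with high Xist (−1.40, adjusted p = 0.0017), and without Vil-CREPTKO replicate 1, the library high in villus enterocyte markers (−1.82, adjusted p = 0.00091).

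Nelfe was alone among the NELF subunit genes in passing. Nelfa, which contacts Pol II, measured 30.5 and 29.6 CPM in WT against 29.0 and 32.2 in Vil-CREPTKO libraries (log2 fold change 0.03, 95% interval −0.27 to 0.32). Nelfb lay at 59.9 and 61.6 CPM in WT against 65.3 and 62.4 in Vil-CREPTKO (0.07, −0.19 to 0.33). Nelfcd, the remaining subunit gene and not one of the 47, stood at 49.5 and 48.9 CPM in WT against 41.9 and 44.5 in Vil-CREPTKO (−0.19, −0.45 to 0.08). Of these 3 genes, 0 passed or had an unadjusted p under 0.05 in edgeR or DESeq2, and each interval excluded a fall of the size seen in Nelfe.

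Within each library, Nelfe was therefore set against its partners. Its CPM relative to Nelfa was 0.904 and 1.18 in WT against 0.413 and 0.277 in Vil-CREPTKO libraries. Relative to Nelfb it was 0.460 and 0.568 in WT against 0.183 and 0.143 in Vil-CREPTKO. Both ratios lay in both Vil-CREPTKO libraries below both WT values, and so did the ratio to Nelfcd (0.557 and 0.716 against 0.286 and 0.200). An exact two-sided permutation test of 2 against 2 libraries cannot go below p = 0.333, which is the value it gave for each ratio. The ratios restate the values of Nelfe and its partners given above and are no separate support. Per kb of exon, the order in WT was Nelfb (17.7 CPM per kb), Nelfcd (17.1), Nelfe (15.1) and Nelfa (7.61), and in Vil-CREPTKO it was Nelfb (18.6), Nelfcd (14.98), Nelfa (7.75) and Nelfe (5.03). Nelfe thus moved from the third place to the last, whereas the order of the other 3 subunits stayed. In WT, however, Nelfcd lay within 1 SD of Nelfe and Nelfb just beyond it, while in Vil-CREPTKO both libraries of Nelfe lay below both of Nelfa.

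Nelfe lies on chromosome 17 (GRCm38, chr17:34850391-34856372, plus strand), in a dense part of the major histocompatibility region. Skiv2l, which encodes a helicase of RNA decay, starts 180 bases upstream on the opposite strand, and Cfb, complement factor B, ends on the opposite strand with 1 base between it and Nelfe. No annotated exon of another gene overlapped those of Nelfe, and no other transcript shared a stretch of at least 200 bases at 95% identity with it. Of the 8 other genes tested within 50000 bases on either side, 0 passed in edgeR or DESeq2, 1 had an unadjusted p under 0.05 with either tool (Zbtb12 in edgeR, −0.63, adjusted p = 0.262), and 5 were lower and 3 higher. These neighbours were picked for their position after the values of Nelfe were seen.

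Skiv2l, which shares the upstream region with Nelfe, had a log2 fold change of −0.04 (SE 0.11, adjusted p = 0.918, edgeR quasi-likelihood test). Cfb had counts of 524 and 411 in WT against 752 and 373 in Vil-CREPTKO libraries, with overlapping groups (0.42, SE 0.34, adjusted p = 0.652). Farther upstream, Dxo and Stk19 had log2 fold changes of −0.04 and 0.13.

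**Figure D3:**
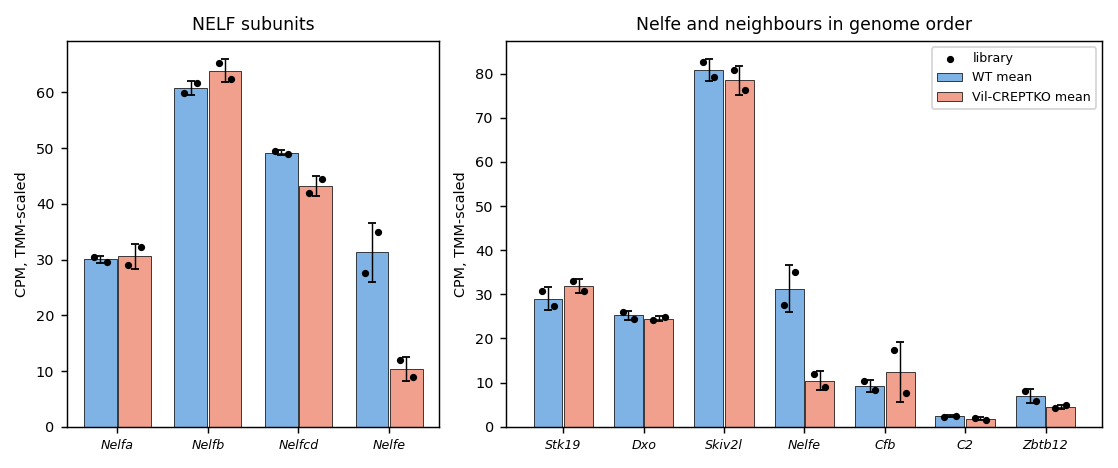
Left, the 4 NELF subunit genes; right, Nelfe with 6 neighbouring genes in genome order (y axes, CPM; bars, group means; error bars, SD of 2 libraries; points, libraries). Nelfe drops to 33.3% of WT, while the bars of Nelfa, Nelfb and Skiv2l are nearly level.

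P-TEFb, the kinase that opposes NELF and DSIF, consists of CDK9 and a cyclin T. Cdk9 counts were 2569 and 2179 in WT against 2581 and 2748 in Vil-CREPTKO libraries, or 50.3 and 44.3 CPM against 59.4 and 56.0. The groups did not overlap, but the difference did not pass over all genes (log2 fold change 0.29, SE 0.12, adjusted p = 0.337, edgeR quasi-likelihood test). Ccnt1 measured 60.6 and 57.9 CPM in WT against 57.0 and 63.2 in Vil-CREPTKO (0.02), and Ccnt2 measured 73.4 and 62.5 against 85.5 and 74.1 (0.23). Hexim1, the inhibitor that keeps P-TEFb inactive with 7SK RNA, had 0.07. All 4 estimates were above 0, as against 2 of the 4 with library-size scaling.

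DSIF is the dimer of SPT4 and SPT5, and SPT6 is the histone chaperone that travels with Pol II. Supt4a lay at 28.9 and 27.2 CPM in WT against 29.7 and 29.7 in Vil-CREPTKO libraries. Supt6 stood at 143 and 143 CPM in WT against 150 and 167 in Vil-CREPTKO (log2 fold change 0.15, SE 0.13, adjusted p = 0.689, edgeR quasi-likelihood test). Supt5 had overlapping groups and a log2 fold change of 0.03. In the PAF1 complex, which accompanies elongating Pol II, Leo1 measured 17.9 and 17.2 CPM in WT against 20.2 and 21.9 in Vil-CREPTKO (0.26, SE 0.14, adjusted p = 0.474, edgeR). Ctr9 had 0.16 and Paf1 −0.04, both with overlapping groups.

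Polr2a encodes the largest Pol II subunit, which carries the CTD that CREPT binds. Its level in WT libraries was 160 and 170 CPM, and in Vil-CREPTKO libraries 177 and 192 CPM, so the highest WT library lay below the lowest Vil-CREPTKO library. The difference did not pass (log2 fold change 0.16, SE 0.13, adjusted p = 0.670, edgeR quasi-likelihood test). Polr2b, the second largest subunit, lay at 60.4 and 61.9 CPM in WT against 66.8 and 76.4 in Vil-CREPTKO (0.23, SE 0.12, adjusted p = 0.451, edgeR). Polr2c had the opposite sign, with 24.7 and 25.8 CPM in WT against 21.5 and 22.2 in Vil-CREPTKO (−0.21). However, 18.1% of its exon length overlaps Dok4 on the opposite strand, and the strand setting of the counting is not known. A stretch of 688 bases was also 97.2% identical to Gm11993, which had 1063 counts in all libraries together, against 4556 for Polr2c.

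The other 10 Pol II subunit genes on the pathway list gave estimates from −0.07 to 0.28, of which 9 were above 0 (8 with library-size scaling). Overlap on the opposite strand was also found among those above 0. It covered 26.8% of the exon length of Polr2i (with Tbcb) and 15.9% of that of Polr2j (with Lrwd1). Over all 13 subunits, 11 estimates were above 0 with a median of 0.17, or 10 with a median of 0.08 with library-size scaling. Of these subunits, 0 passed or had an unadjusted p under 0.05 in edgeR or DESeq2.

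CPSF recognises the polyadenylation signal and contains the endonuclease, CPSF73, encoded by Cpsf3. Cpsf3 stood at 56.7 and 53.7 CPM in WT against 60.8 and 64.0 in Vil-CREPTKO libraries, with separate groups (log2 fold change 0.18, SE 0.11, adjusted p = 0.557, edgeR quasi-likelihood test). Of the 7 genes of CPSF and its scaffold, 5 estimates were below 0 and 2 above (4 and 3 with DESeq2), from −0.20 (Cpsf4) to 0.18 (Cpsf3), and the median was −0.06. Wdr33 and Cpsf4, whose products contact the signal, and Fip1l1, which brings in poly(A) polymerase, were at −0.01, −0.20 and −0.07. Cpsf1, Cpsf2 and Sympk, the scaffold, were at −0.12, −0.06 and 0.09.

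CstF binds the sequence downstream of the cleavage site. Cstf3, its dimerising scaffold subunit, measured 38.2 and 33.1 CPM in WT against 40.4 and 40.0 in Vil-CREPTKO libraries (0.17, SE 0.13, adjusted p = 0.619, edgeR quasi-likelihood test). Cstf1 and Cstf2 were at −0.02 and 0.02, and Cstf2t, a paralogue of Cstf2, at 0.13. CFIm, which binds upstream and takes part in the choice between polyadenylation sites, had estimates of 0.03 (Nudt21), 0.05 (Cpsf6) and 0.13 (Cpsf7). Cpsf7 lay at 70.9 and 61.3 CPM in WT against 73.8 and 71.1 in Vil-CREPTKO, with a gap between the groups of under 1 CPM.

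Papola, the main nuclear poly(A) polymerase gene, stood at 211 and 210 CPM in WT against 250 and 240 in Vil-CREPTKO libraries. The 4 libraries fell into 2 separate pairs, yet the difference did not pass (log2 fold change 0.22, SE 0.14, adjusted p = 0.549, edgeR quasi-likelihood test). Papolg, a second poly(A) polymerase, had −0.17, Clp1, an RNA kinase of CFIIm, had 0.14, and Pabpn1, which coats the growing tail, had 0.23 with overlapping groups. Pcf11, the CTD-binding subunit of CFIIm, is on the pathway list and had 0.23 (SE 0.11, adjusted p = 0.410, edgeR), with 79.6 and 73.9 CPM in WT against 90.2 and 90.3 in Vil-CREPTKO.

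Xrn2, the exonuclease that degrades the RNA downstream of the cut, measured 77.2 and 85.7 CPM in WT against 79.1 and 96.4 in Vil-CREPTKO libraries. The groups overlapped (log2 fold change 0.11, SE 0.14, adjusted p = 0.797, edgeR quasi-likelihood test), and the sign turned without Vil-CREPTKO replicate 2 (−0.04).

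Integrator cuts the 3′ ends of small nuclear RNAs and of transcripts at paused promoters. Among its 9 genes, 7 estimates were above 0 and 2 below, which became 4 and 5 with library-size scaling. Ints1, which encodes the large scaffold subunit, lay at 90.9 and 95.6 CPM in WT against 69.9 and 85.1 in Vil-CREPTKO libraries (log2 fold change −0.27, SE 0.13, adjusted p = 0.419, edgeR quasi-likelihood test). Ints6, a subunit that contacts protein phosphatase PP2A, stood at 35.5 and 37.6 CPM in WT against 26.5 and 34.8 in Vil-CREPTKO (−0.25, SE 0.15, adjusted p = 0.529, edgeR). For both genes the groups did not overlap and Vil-CREPTKO replicate 1, which had the highest sum of villus enterocyte markers, was the lowest library. Without that library the estimates were −0.13 for Ints1 and −0.07 for Ints6. Without Vil-CREPTKO replicate 2 they were −0.41 and −0.46. The cause of this spread was not tested.

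Ints2 had an estimate above 0, with 25.9 and 25.9 CPM in WT against 29.0 and 31.9 in Vil-CREPTKO libraries (0.23, SE 0.13, adjusted p = 0.492, edgeR quasi-likelihood test). It shares 512 bases of exon with Brip1os on the opposite strand. Ints12 was nearly level, at 18.5 and 17.9 CPM in WT against 19.2 and 18.5 in Vil-CREPTKO. Ints3, Ints7, Ints8, Ints9 and Ints10 lay between 0.04 and 0.18. The endonuclease gene Ints11, on the pathway list, had 0.18, and 22.7% of its exon length overlaps Pusl1 on the opposite strand. With the other 5 subunits on that list, Ints11 included, 9 of 14 estimates were above 0, or 6 with library-size scaling. Of these 14, 0 passed or had an unadjusted p under 0.05 in edgeR or DESeq2 with their default scaling, and with library-size scaling 0 passed and 1 had an unadjusted p under 0.05.

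CTD phosphatases remove the phosphates that 3′ end factors and CREPT recognise. Ssu72, the phosphatase bound to symplekin, measured 50.9 and 52.6 CPM in WT against 59.3 and 58.0 in Vil-CREPTKO libraries, with separate groups (log2 fold change 0.18, SE 0.11, adjusted p = 0.544, edgeR quasi-likelihood test). Ctdp1, the gene of FCP1, and Ctdspl2 had estimates of 0.12 and 0.03 with overlapping groups.

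The pathway list held 54 further genes of the same machinery, all tested. Of these, 1 passed, lower in Vil-CREPTKO (2.29% of all genes tested did): Ctdsp1, which encodes SCP1, a small CTD phosphatase. Its counts were 6033 and 6116 in WT libraries against 3413 and 3752 in Vil-CREPTKO libraries, or 118 and 124 CPM (121 ± 4.30, SD, n = 2) against 78.5 and 76.4 CPM (77.5 ± 1.499, SD, n = 2). The libraries of each group lay close together and the groups were well apart, with the Vil-CREPTKO mean at 63.9% of the WT mean.

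The edgeR quasi-likelihood test gave Ctdsp1 a log2 fold change of −0.65 (SE 0.12, adjusted p = 0.0259). It did not pass without WT replicate 2 (−0.61, adjusted p = 0.105) or with a correction for GC content and length (−0.50, adjusted p = 0.0692). A stretch of 274 bases was 97.8% identical to Gm31544, which had 120 counts in all 4 libraries together.

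Among the remaining 53 genes, Tox4 and Ctdspl had an unadjusted p under 0.05 and were named for it after their values were seen. With Ctdsp1, 3 of the 54 genes had an unadjusted p under 0.05, beside 14.3% of all genes tested. Tox4 encodes a partner of the phosphatase regulator PNUTS, and its level was 55.1 and 63.9 CPM in WT against 39.9 and 44.7 in Vil-CREPTKO libraries (−0.49, SE 0.13, adjusted p = 0.103, edgeR quasi-likelihood test). Ctdspl, a gene of the same small phosphatase family as Ctdsp1, lay at 44.6 and 39.6 CPM in WT against 29.8 and 32.1 in Vil-CREPTKO (−0.45, SE 0.13, adjusted p = 0.131, edgeR). The exons of Tox4 overlap those of Mettl3 on the opposite strand over 933 bases. Tox4 and Ctdspl both had lower values in each Vil-CREPTKO library than in either WT library, as did 24.2% of all genes tested. Ctdsp2, the third small CTD phosphatase gene, had −0.19 (adjusted p = 0.628, edgeR), and Ppp1r10 and Wdr82, of the PNUTS complex, had 0.10 and −0.03. Of all 54 genes, 34 estimates were above 0 (63.0%, beside 49.1% of all genes tested) and 20 below. Their median was 0.035. With library-size scaling, which also lowered the median of all genes to −0.098, 23 were above 0.

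**Figure D4:**
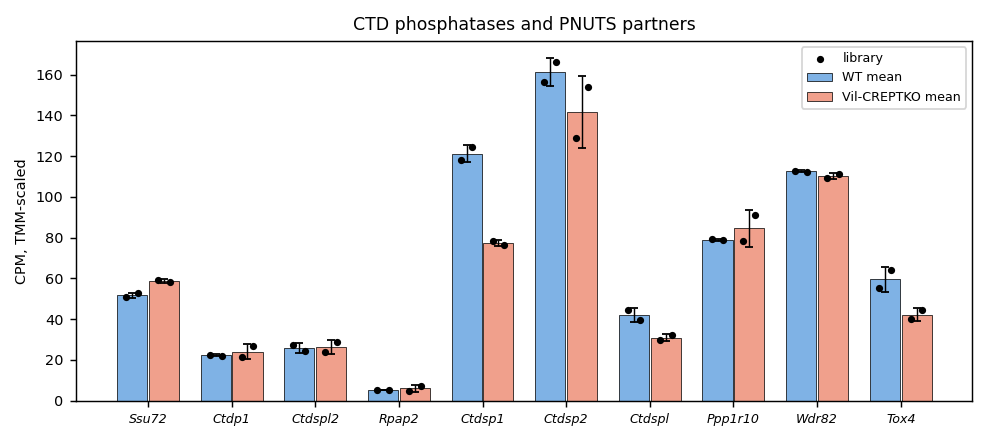
Level of CTD phosphatase genes and of PNUTS complex genes (y axis, CPM; bars, group means; error bars, SD of 2 libraries; points, libraries). Ctdsp1 is at 121 CPM in WT and 77.5 in Vil-CREPTKO, and it is the only gene shown that passed. The Vil-CREPTKO means of Ctdsp2, Ctdspl, Tox4 and Wdr82 are also below those of WT, and those of Ssu72, Ctdp1, Ctdspl2, Rpap2 and Ppp1r10 above (Ctdspl2 below with library-size scaling).

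Promoter sequence was looked at for what the 47 genes share beside their function. RefSeq promoters of the same genome assembly (GRCm38.p6, from 250 bases before to 50 bases after the start) were matched for 39 of the 47 genes, the others being Nelfe, Cpsf1, Wdr33, Ctdp1, Ints8, Ints9, Ints10 and Ctr9. Both strands were searched for each motif. A GC box (GGGCGG), the core of Sp-family sites, was in 27 of the 39 (69.2%) and in 35.9% of all 27025 promoters. The ETS core CCGGAA was in 16 (41.0%) against 15.2% of all. CCAAT was in 16 (41.0%) against 37.9%, and TATAAA in 3 (7.69%) against 14.2%. The median GC content was 61.3% in the 39 and 52.7% in all promoters. The shares were not adjusted for GC content or for expression. All 47 genes were tested here, whereas the 27025 promoters include those of genes that were not. These are matches of letters, with no measure of binding.

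The promoters of Polr2a, the gene of the CTD, and of Ctdsp1, the CTD phosphatase gene that passed, are printed here. Capitals mark the motifs named above. Polr2a lies at chr11:69758584-69758883 on the minus strand and has 3 GC boxes and 1 TATAAA, and Ctdsp1 lies at chr1:74391359-74391658 on the plus strand and has 1 GC box. Both are written from 5′ to 3′ on the strand of the gene.
Polr2a: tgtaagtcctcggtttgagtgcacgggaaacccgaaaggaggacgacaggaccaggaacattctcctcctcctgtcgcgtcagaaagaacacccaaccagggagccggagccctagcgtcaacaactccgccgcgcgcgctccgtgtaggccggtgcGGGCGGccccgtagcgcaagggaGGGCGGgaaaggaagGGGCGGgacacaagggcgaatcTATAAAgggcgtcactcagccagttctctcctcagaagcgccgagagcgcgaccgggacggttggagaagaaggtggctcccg
Ctdsp1: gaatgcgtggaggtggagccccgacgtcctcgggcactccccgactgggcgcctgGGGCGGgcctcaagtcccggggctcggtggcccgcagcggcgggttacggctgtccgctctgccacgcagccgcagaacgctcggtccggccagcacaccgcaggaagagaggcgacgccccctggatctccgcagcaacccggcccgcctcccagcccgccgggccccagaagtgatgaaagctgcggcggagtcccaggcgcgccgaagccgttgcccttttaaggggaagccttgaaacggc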

How the data were processed

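RNA-seq was deposited for 4 libraries of mouse intestinal crypts, 2 WT and 2 Vil-CREPTKO, grouped by their titles. The authors deposited whole-number read counts per gene, 1 column per library, not normalised and not pooled. Their methods and processing notes name CASAVA 1.8, Bowtie2 against reference transcripts of GRCm38.p6, and RSEM. Other versions and the strand setting are not given in the sources used here, and the instrument is named as BGISEQ in the methods and as Illumina in the record. Libraries of a group differed by more than counting error (chi-square per gene 49.8 in WT and 70.1 in Vil-CREPTKO), so none was taken as a second copy of another.

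Symbols and coordinates came from GENCODE M21 (GRCm38), which matched 53360 of 53845 rows (99.1%). Another 380 rows were unnamed loci with 0.178% to 0.247% of a library's counts and were kept in the tests. Low genes were removed with filterByExpr, which left 17504. Counts were tested with edgeR 4.0.16 (R 4.3.3; quasi-likelihood, TMM scaling, group only, two-sided) on the whole table, with Benjamini-Hochberg adjustment over all genes tested. Each edgeR SE was worked back from a gene's estimate and its test result, as the fit itself reports none. The 95% intervals built on these SEs are therefore approximate. The biological coefficient of variation was 0.188. Log ratios of a library to the WT mean had 0.1 CPM added. Alternatives were DESeq2 1.42.0, other scalings, filters and tests, a correction for GC content and length, a replicate block and each library left out. The fitting script was tested on simulated data. Near copies were sought with blastn 2.17.0.

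The 47 genes, the 54 pathway genes and the marker lists were chosen with earlier results of these data known, and no set test was run. Values by library were given for genes with an unadjusted p under 0.05, for the lowest p of each role, for the 3 highest and the 3 lowest levels per kb, for Polr2a, and for pathway genes that passed. Values of other genes were added after they were seen. Exon overlap with another counted gene was found for 18 of the 47. A near-identical stretch in another gene was found for 9, in most of them in a gene that overlaps it. Nudt21 (with Gm7488) and Polr2c (with Gm11993) matched genes that do not overlap them. With totals of 47241049 to 49369315 counts, counting error is small beside the spread between libraries, and 2 libraries a group limit the precision.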

Additional observations from a re-analysis of the deposited data

How the results depend on the processing

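Under each of 14 alternatives 1 of the 47 genes passed, Nelfe, and its log2 fold change stayed beyond 1 in size. The median of the 47 estimates moved from 0.074 to −0.022 with library-size scaling, and that of all genes from −0.0060 to −0.098. The difference between these medians was 0.080 in the main fit and 0.076 with library-size scaling. The median of the 47 was 0.131 with the correction for GC content and length and 0.129 with that correction and the replicate block. It lay between 0.022 and 0.102 with 1 library left out. With library-size scaling 13 of the 47 estimates changed sign. Among the genes named by the rule, signs turned for Ints12 (−0.048) and Supt4a (−0.010) with library-size scaling and for Xrn2 (−0.038) without Vil-CREPTKO replicate 2 (range with 1 library left out, −0.038 to 0.240). The number of pathway genes that passed, 1 here, was 2 without a filter on low counts (Ctdsp1 and Tox4), 0 with the correction for GC content and length, 0 with that correction and the replicate block, and 0 to 1 with 1 library left out (0 without WT replicate 2). The number of genes passing over the whole table, 474 here, was 848 with DESeq2, 1233 without the filter, 965 with the likelihood ratio test, and 435 to 677 with 1 library left out. The cause of these changes was not tested. Libraries of the same number share only that number (correlation of their deviations 0.0277), and the replicate block gave 558 genes, a log2 fold change of −1.59 for Nelfe and an adjusted p of 0.0039 in edgeR. At least 437 counts lay behind each value of the 47 genes, and 2 libraries a group limit the precision.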
